A study of Mus musculus with 10 samples.

Results

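The 33 genes described here encode enzymes and carriers that build cholesterol and long-chain fatty acids from acetyl-CoA. They were chosen by name, and all 33 were found among the 21866 genes of the count table. The sterol branch holds 18 of them, ordered from the joining of acetyl-CoA units to the last reduction that gives cholesterol. The fatty acid branch holds 15, ordered from the supply of cytosolic acetyl-CoA and NADPH, through malonyl-CoA and palmitate, to elongation and desaturation.

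Messenger RNA was sequenced in 10 libraries of live CD11b-positive cells with an intermediate level of CD45, sorted from mouse retina, a gate that the labels call microglia. The gate was divided by CD36, a scavenger receptor that also takes up fatty acids, into a group with CD36 on its surface (CD36-POS, 5 libraries, with the numbers 1, 2, 3, 4 and 7) and a group without it (CD36-NEG, 5 libraries, with the numbers 1, 2, 4, 7 and 8). All titles carry the mark WT, and no strain, age or number of animals per library is given. The protocol names an intravenous dose of 20 mg/kg sodium iodate, which injures the retinal pigment epithelium, or saline, with eyes taken 7 days later. Which of these the sorted samples received is not in the labels, so treatment was not compared. Setting CD36-POS against CD36-NEG cells bears on lipid accumulation, which the series title names.

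Cholesterol synthesis is controlled by its own product. When membrane sterol falls, the escort protein SCAP carries the SREBP transcription factors to the Golgi, where proteases free their active part, and this part binds sterol regulatory elements in the promoters of sterol enzymes. SREBP-2, the product of Srebf2, acts mainly on sterol genes, whereas SREBP-1c, made from Srebf1 under the control of the oxysterol receptors LXR, acts mainly on fatty acid genes. The retina both makes cholesterol and takes it up from lipoproteins.

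Total counts ran from 5001413 to 13250312 per library and were lowest in CD36-POS libraries 1 and 3. In a principal component analysis of log2 CPM, the second component (15.9% of the variance) set library 1 of these apart, and the third (12.3%) library 3, where CPM is the count divided by a library size scaled with TMM. Cd36 itself was at 219 ± 39.9 CPM in CD36-POS and 50.3 ± 5.51 CPM in CD36-NEG libraries (SD, n = 5 each). Of 16 microglia markers 0 passed edgeR's quasi-likelihood test at an adjusted p of 0.05 (2 lower and 2 higher at an unadjusted p of 0.05, which 10.8% and 10.5% of all genes passed in these directions, 0 with DESeq2 and 0 with limma voom). Their summed level was 15177 to 32794 CPM in CD36-POS and 14154 to 31865 CPM in CD36-NEG libraries. Nothing in the labels says that libraries came from separate animals, so p-values measure the spread between these samples, which may be technical.

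Of the 33 genes, 29 passed the filter on low counts and were tested, among them all 18 of the sterol branch. In the sterol branch 3 genes passed the test, all lower in CD36-POS cells. These were Cyp51, Mvd and Sqle, with falls of 2.35-fold, 3.28-fold and 4.88-fold. No sterol member was higher past the threshold by edgeR, DESeq2 or limma voom, and 0 were higher at an unadjusted p of 0.05. Across all 11594 genes tested, 4.74% passed as lower and 2.61% as higher in CD36-POS cells, together 7.36%. Without CD36-POS libraries 1 and 3, 2 sterol members passed as lower (Mvd and Cyp51) and 0 as higher. The median log2 fold change was -0.64 over the 18 sterol members and 0.02 over all genes tested, and 15 of the 18 lay below 0, as did 48.8% of all genes tested. At an unadjusted p of 0.05, 10 of 18 sterol members were lower, against 10.8% of all genes. In bulk samples such as these, fewer cells of a type and less RNA per cell cannot be told apart.

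Many markers of 4 other leukocyte types were also lower in CD36-POS cells. Of 14 dendritic cell markers, 13 were lower in CD36-POS cells, and their summed level was 45.0 to 122 CPM in CD36-POS and 893 to 1419 CPM in CD36-NEG libraries. None of these 14 was at 0 in a whole group. Batf3 was the one that did not pass, with a log2 fold change of -0.15. Markers of monocytes were lower in 6 of 10 and summed to 643 to 1209 CPM in CD36-POS and 1352 to 2340 CPM in CD36-NEG libraries. The 4 that did not pass were Fn1, Ccr2, Vcan and Itgal, with log2 fold changes of -0.47, 0.01, 0.38 and 0.60. For Itgal every CD36-POS library was above every CD36-NEG library (edgeR adjusted p = 0.0576). Neutrophil markers (6 of 8 tested lower) summed to 84.7 to 194 CPM in CD36-POS and 306 to 849 CPM in CD36-NEG libraries. The 2 that did not pass were Csf3r and Hdc, with log2 fold changes of -0.53 and -2.99. Most of the CD36-POS sum was Csf3r, at 65.1 to 175.5 CPM there and 97.5 to 275.8 CPM in CD36-NEG libraries. Camp, not tested, had 21 counts over the CD36-POS group and 13 over the CD36-NEG group. Retnlg had no count in any CD36-POS library, against 4123 counts over the CD36-NEG group. Ngp and Ly6g also had no count in CD36-POS libraries, but only 9 and 13 counts over the CD36-NEG group, too few to compare. T and NK cell markers (7 of 8 tested lower) summed to 3.35 to 22.6 CPM in CD36-POS and 71.0 to 351 CPM in CD36-NEG libraries, with Prf1 at 0 in every CD36-POS library. For these 4 lists the groups did not overlap. Markers of macrophages at tissue borders went both ways (3 higher and 1 lower of 8 tested), with 5 of 8 log2 fold changes below 0. Their sums did not overlap and were higher in CD36-POS (992 to 1201 CPM) than in CD36-NEG libraries (366 to 959 CPM). Most of the CD36-POS sum was Ms4a7, at 661 to 974 CPM. Outside leukocytes, all 12 tested photoreceptor markers had log2 fold changes below 0, and 2 passed as lower. Their sums, 119 to 1026 CPM in CD36-POS and 415 to 2598 CPM in CD36-NEG libraries, overlapped. Of 4 tested endothelial and pericyte markers 2 passed as lower. This list summed to 10.8 to 28 CPM in CD36-POS and 30.0 to 75.4 CPM in CD36-NEG libraries. Müller glia and astrocyte markers went both ways (1 higher and 1 lower of 7 tested). The part of all these cells in the sterol values was not tested.

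**Figure D1:**
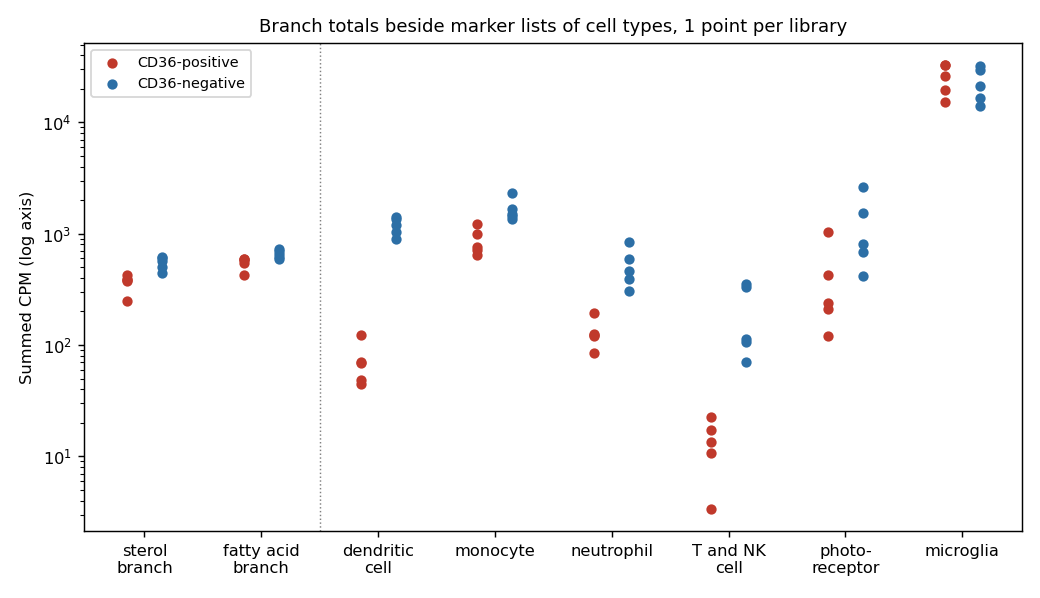
Summed CPM (log axis) of the sterol and fatty acid branches, left of the dotted line, and of 6 marker lists, right of it, with 1 point per library, CD36-POS (CD36-positive) in red and CD36-NEG (CD36-negative) in blue. The dendritic cell sums of 45.0 to 122 CPM in CD36-POS libraries lie below the 893 to 1419 CPM of CD36-NEG libraries, while the microglia sums overlap.

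The sterol branch opens with Acat2, the cytosolic thiolase that joins acetyl-CoA units, and Hmgcs1, which makes HMG-CoA. Hmgcs1 was at 39.1, 41.1, 35.1, 33.8 and 48.7 CPM in CD36-POS libraries 1, 2, 3, 4 and 7, against 73.1, 66.7, 55.7, 46.3 and 49.9 CPM in CD36-NEG libraries 1, 2, 4, 7 and 8. Only CD36-POS library 7 reached into the range of the CD36-NEG group. Its log2 fold change was -0.56 (SE 0.20), and it did not pass (edgeR adjusted p = 0.107). Acat2 had a log2 fold change of -0.12 with a 95% confidence interval from -0.81 to 0.58. Its counts had decimals, and how reads were divided is not given, so its level is uncertain.

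The mevalonate steps follow: Mvk and Pmvk add phosphates, Mvd removes a carboxyl group to give the isoprenoid unit, Idi1 isomerizes it, and Fdps and Fdft1 join units into farnesyl diphosphate and squalene. Mvd (GRCm38 with GENCODE M21 genes, chromosome 8, 122433601 to 122443422, minus strand) was at 0.558, 6.44, 4.59, 9.46 and 10.1 CPM in CD36-POS libraries 1, 2, 3, 4 and 7, against 23.1, 11.4, 26.8, 17.96 and 24.5 CPM in CD36-NEG libraries 1, 2, 4, 7 and 8. No CD36-POS library reached the lowest CD36-NEG one, and CD36-POS library 1 was lowest with 3 counts. Mvd fell by 1.71 on the log2 scale (SE 0.50, edgeR adjusted p = 0.0458), close to the threshold. It did not pass without CD36-POS library 2 or 3 or CD36-NEG library 1, 4, 7 or 8 (edgeR adjusted p from 0.0711 to 0.120), where its log2 fold change stayed between -1.76 and -1.62.

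Pmvk and Idi1 came next in p among sterol members that did not pass. Pmvk was at 6.51, 19.6, 16.1, 11.6 and 13.7 CPM in CD36-POS libraries 1, 2, 3, 4 and 7, against 27.9, 28.7, 30.9, 18.3 and 29.7 CPM in CD36-NEG libraries 1, 2, 4, 7 and 8. The groups overlapped at CD36-POS library 2 and CD36-NEG library 7. Its log2 fold change was -0.999 (SE 0.30, edgeR adjusted p = 0.0553), and without CD36-POS library 2 it was -1.19 and passed (edgeR adjusted p = 0.0315). Idi1 was at 1.303, 22.7, 9.17, 8.45 and 24.8 CPM in CD36-POS libraries, against 51.6, 24.2, 41.6, 26.8 and 43.0 CPM in CD36-NEG libraries. CD36-POS library 1 was far below the rest, and library 7 reached the CD36-NEG range. The log2 fold change was -1.48 (SE 0.49, edgeR adjusted p = 0.0814), or -1.83 without CD36-POS library 7, where it passed (edgeR adjusted p = 0.0361). Counts of Idi1 and Fdft1 had decimals, and Fdft1 overlaps exons of the highly expressed protease gene Ctsb on the opposite strand, so these levels are uncertain. Fdps, Fdft1 and Mvk had log2 fold changes of -0.61, -0.48 and -0.27, and none passed (edgeR adjusted p of 0.220, 0.492 and 0.759).

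**Figure D2:**
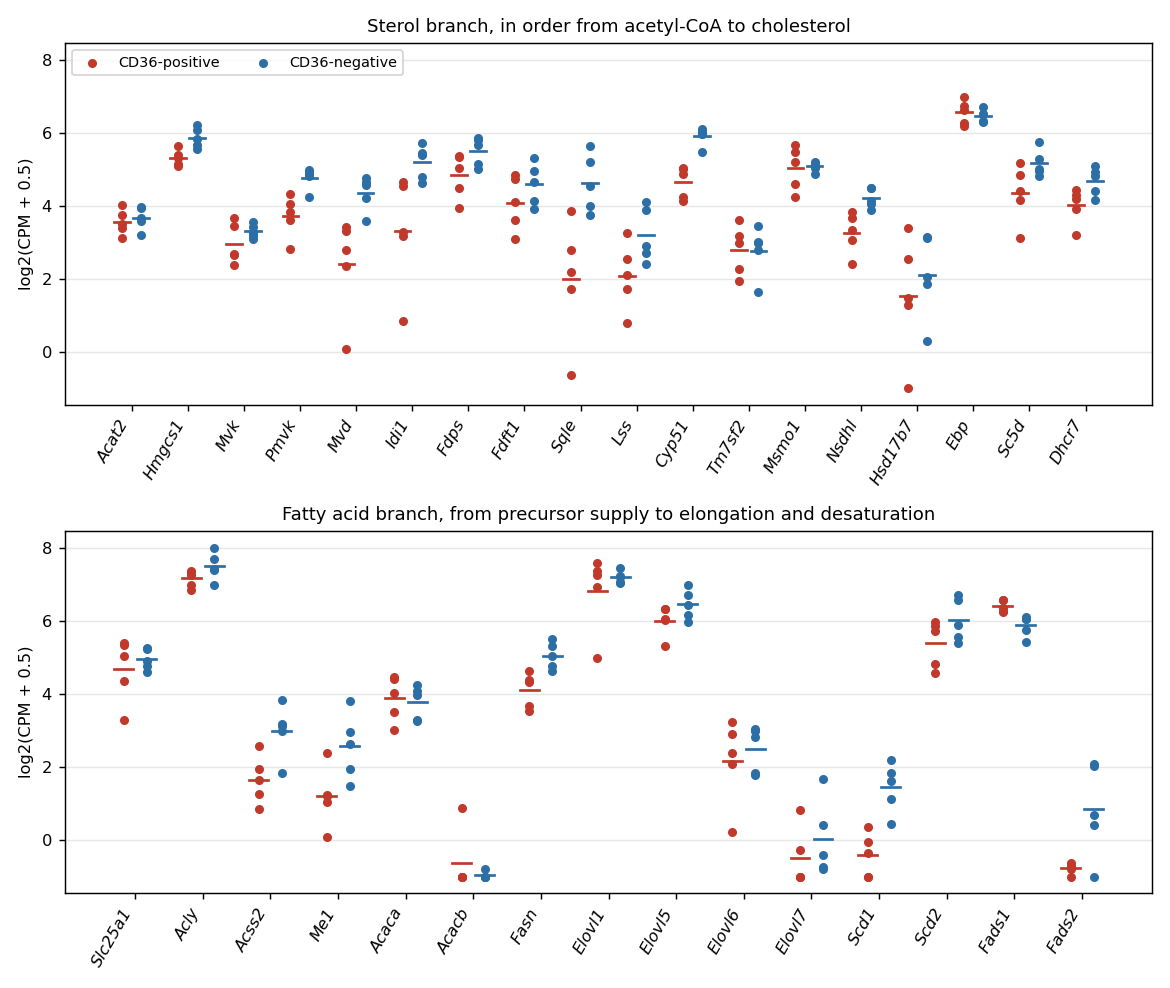
Levels of the 33 genes as log2(CPM + 0.5), with 1 point per library and a bar at the group mean, CD36-POS (red) left of CD36-NEG (blue) for each gene, and genes in pathway order. Mvd and Cyp51 do not overlap between the groups, and the lowest points of Mvd and Idi1 are CD36-POS library 1 at 0.558 and 1.303 CPM.

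Squalene is then oxidized by Sqle, a rate-limiting enzyme of the later pathway, cyclized by Lss to lanosterol, and demethylated by Cyp51. Sqle (chromosome 15, 59315077 to 59331192, plus strand) was at 2.79, 4.06, 0.143, 6.42 and 13.9 CPM in CD36-POS libraries 1, 2, 3, 4 and 7, against 36.2, 22.6, 49.5, 12.9 and 15.5 CPM in CD36-NEG libraries 1, 2, 4, 7 and 8. CD36-POS library 7 lay above CD36-NEG library 7, the only overlap, and CD36-POS library 3 held 1 count. Its log2 fold change was -2.29 (SE 0.63, edgeR adjusted p = 0.0358), the lowest of the 29 members tested. Without CD36-POS library 7 it was -3.003. It did not pass without CD36-POS library 1, 2 or 4 or CD36-NEG library 1, 2 or 4 (edgeR adjusted p from 0.0545 to 0.128), and the smallest change among those fits, -1.98, came without CD36-NEG library 4.

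Cyp51 (chromosome 5, 4081145 to 4104746, minus strand) was at 18.2, 17.2, 32.2, 31.9 and 28.7 CPM in CD36-POS libraries 1, 2, 3, 4 and 7, against 68.5, 44.2, 61.6, 64.8 and 62.4 CPM in CD36-NEG libraries 1, 2, 4, 7 and 8. The groups did not overlap, which held for 3 of 18 sterol members and, in this direction, for 5.82% of all genes tested. Cyp51 fell by 1.23 on the log2 scale (SE 0.23, edgeR adjusted p = 0.00271). Cyp51 was the sterol member that passed in all 20 alternative fits, with log2 fold changes from -1.34 to -1.13, whereas Mvd passed in 11 of 20 and Sqle in 10 of 20. Exons of Cyp51 overlap Akap9 on the opposite strand over a short stretch, and Akap9 had a log2 fold change of 0.09. Lss was at 4.43 ± 2.96 CPM in CD36-POS and 9.71 ± 5.34 CPM in CD36-NEG libraries (SD, n = 5 each, log2 fold change -1.13, edgeR adjusted p = 0.265).

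The last steps, from lanosterol products to cholesterol, were mixed. Nsdhl, a sterol dehydrogenase, was at 9.62 ± 3.51 CPM in CD36-POS and 18.2 ± 3.43 CPM in CD36-NEG libraries without overlap (SD, n = 5 each), but did not pass (log2 fold change -0.91, edgeR adjusted p = 0.115). Sc5d, a sterol desaturase, and Dhcr7, which completes cholesterol from its last precursor, had log2 fold changes of -0.71 and -0.66 (edgeR adjusted p of 0.216 and 0.197). Msmo1, Tm7sf2 and Hsd17b7 had log2 fold changes of 0.05, 0.05 and -0.31, each with an interval that spans 0. Ebp, the sterol isomerase, had the highest CPM of the branch, at 72.0, 126, 76.1, 97.5 and 106 CPM in CD36-POS libraries 1, 2, 3, 4 and 7, against 79.9, 90.4, 91.1, 78.2 and 103 CPM in CD36-NEG libraries 1, 2, 4, 7 and 8. Its groups overlapped, and its log2 fold change of 0.11 had an interval from -0.30 to 0.51.

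**Figure D3:**
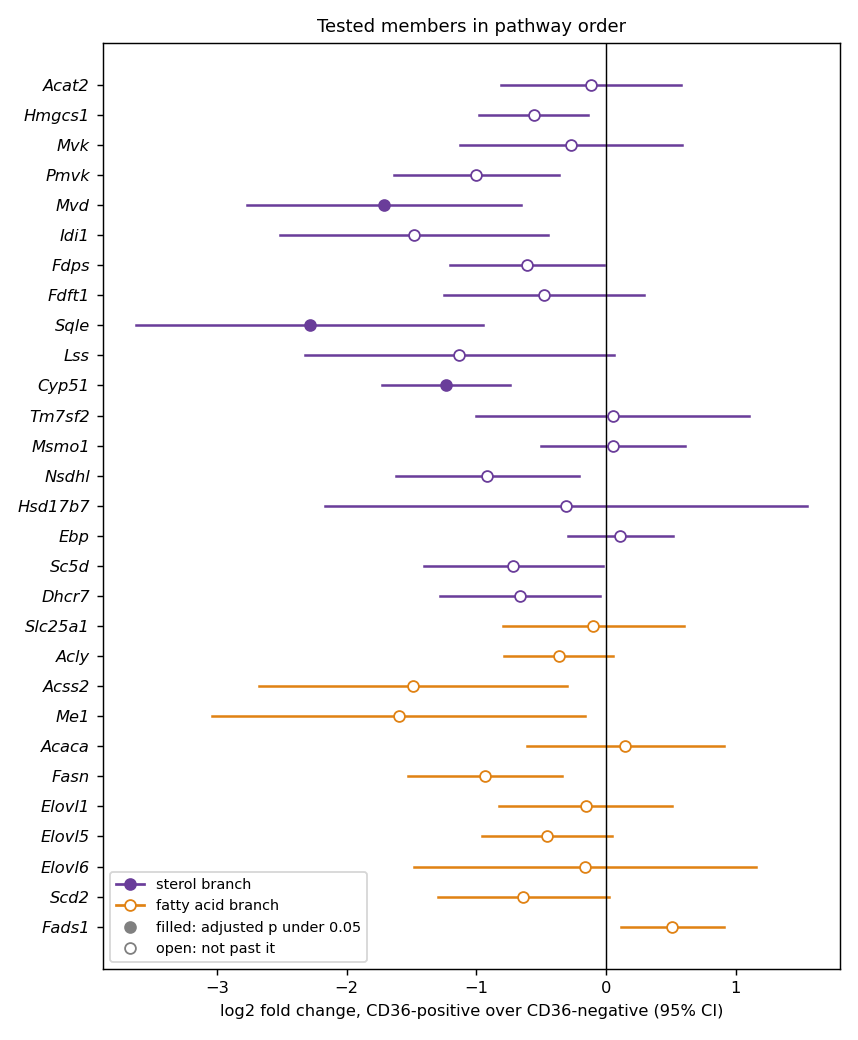
Log2 fold change of the 29 tested members, CD36-POS over CD36-NEG, with 95% confidence intervals, in pathway order from the top (sterol branch in purple, fatty acid branch in orange). Filled points passed the edgeR test (Mvd at -1.71, Sqle at -2.29 and Cyp51 at -1.23), and Fads1 at 0.51 is the only interval wholly above 0.

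Promoters are shown as the stretch in which sterol regulatory elements are looked for. They cover the sterol members with the smallest p that have a RefSeq entry (Cyp51 and Mvd, which passed, and Pmvk and Idi1, which did not). The promoter of Hmgcs1 was added after the search, as the 1 of 15 sterol members with an entry that held the exact motif TCACNCCAC. Each runs from 250 bases before to 50 bases after the start of a transcript (RefSeq, GRCm38.p6), in lower case with motif matches in capitals. The motifs searched on both strands were TCACNCCAC (1 form of the sterol regulatory element), CCAAT (the NF-Y box) and GGGCGG (the GC box bound by Sp1). Other forms of the sterol regulatory element were not searched, so a promoter without a match may still hold such an element. Pmvk has 2 entries, of which the first along the chromosome is printed, and the other held none of the motifs. A capital run read as ATTGG or CCGCCC is a box on the other strand.
Cyp51, chr5:4104648-4104947, minus strand: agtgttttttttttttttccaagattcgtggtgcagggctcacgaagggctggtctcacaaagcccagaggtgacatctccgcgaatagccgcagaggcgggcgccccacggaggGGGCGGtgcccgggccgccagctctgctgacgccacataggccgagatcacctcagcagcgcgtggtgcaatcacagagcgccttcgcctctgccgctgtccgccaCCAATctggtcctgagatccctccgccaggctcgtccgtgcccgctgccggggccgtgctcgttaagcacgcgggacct
Mvd, chr8:122443373-122443672, minus strand: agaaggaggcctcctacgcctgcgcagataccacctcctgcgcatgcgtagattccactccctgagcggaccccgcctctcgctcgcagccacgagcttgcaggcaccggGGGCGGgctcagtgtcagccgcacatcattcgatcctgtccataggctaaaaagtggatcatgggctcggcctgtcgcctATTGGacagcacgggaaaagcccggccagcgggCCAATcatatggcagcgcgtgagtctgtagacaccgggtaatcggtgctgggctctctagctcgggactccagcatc
Pmvk, chr3:89454291-89454590, plus strand: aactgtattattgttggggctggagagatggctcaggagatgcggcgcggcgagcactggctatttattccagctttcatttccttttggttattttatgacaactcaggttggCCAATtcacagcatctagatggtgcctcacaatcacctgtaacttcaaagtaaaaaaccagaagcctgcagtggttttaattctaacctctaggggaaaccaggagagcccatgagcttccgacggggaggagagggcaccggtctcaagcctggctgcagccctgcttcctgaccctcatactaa
Idi1, chr13:8885356-8885655, plus strand: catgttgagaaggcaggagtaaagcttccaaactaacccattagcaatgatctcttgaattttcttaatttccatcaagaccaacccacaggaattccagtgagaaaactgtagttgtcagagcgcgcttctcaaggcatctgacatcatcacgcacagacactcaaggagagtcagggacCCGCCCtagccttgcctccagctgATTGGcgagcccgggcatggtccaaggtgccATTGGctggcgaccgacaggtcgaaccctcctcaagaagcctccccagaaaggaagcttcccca
Hmgcs1, chr13:119690101-119690400, plus strand: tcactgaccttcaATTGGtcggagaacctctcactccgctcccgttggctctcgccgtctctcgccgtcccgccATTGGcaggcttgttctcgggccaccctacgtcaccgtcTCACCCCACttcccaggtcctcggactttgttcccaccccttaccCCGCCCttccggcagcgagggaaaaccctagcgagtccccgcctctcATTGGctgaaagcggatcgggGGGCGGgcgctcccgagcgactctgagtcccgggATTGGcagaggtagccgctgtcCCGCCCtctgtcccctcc
The TCACNCCAC match of Hmgcs1 begins 137 bases before the start. Promoter entries matched 27 of the 33 members. Of 18 promoters of sterol members, 5.56% held TCACNCCAC, 77.8% CCAAT and 83.3% GGGCGG. In 14 promoters of fatty acid members the shares were 0%, 57.1% and 57.1%, and in all 32851 promoters of this length 1.24%, 37.4% and 35.7%. These matches describe letters in the window, not binding.

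In the fatty acid branch no member passed the edgeR test in either direction, against the 4.74% lower and 2.61% higher of all genes. Of its 15 members 11 could be tested, and their median log2 fold change was -0.37. On simulated counts the test recovered 29.9% of 2-fold changes, so members that did not pass may still differ. At an unadjusted p of 0.05, 3 of the 11 were lower and 1 higher, against 10.8% and 10.5% of all genes. DESeq2 called 1 lower, Fasn, and limma voom 0. The supply genes Slc25a1, which exports citrate from mitochondria, Acly, which splits citrate into acetyl-CoA, Acss2, which makes acetyl-CoA from acetate, and Me1, a source of NADPH, serve both branches. Their log2 fold changes were -0.10, -0.37, -1.49 and -1.60.

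Acly was the most abundant of the supply genes, at 115, 127, 162, 153 and 167 CPM in CD36-POS libraries 1, 2, 3, 4 and 7, against 168, 128, 172, 208 and 258 CPM in CD36-NEG libraries 1, 2, 4, 7 and 8. CD36-NEG library 2 fell within the CD36-POS range and the other 4 lay above it, and the change did not pass (SE 0.20, edgeR adjusted p = 0.310). Acss2 was at 1.303, 1.92, 5.45, 3.38 and 2.62 CPM in CD36-POS libraries, against 8.32, 8.66, 3.07, 7.52 and 13.7 CPM in CD36-NEG libraries. CD36-NEG library 4 fell within the CD36-POS range (SE 0.56, edgeR adjusted p = 0.128). Me1 was at 2.11 ± 1.56 CPM in CD36-POS and 6.45 ± 4.44 CPM in CD36-NEG libraries (SD, n = 5 each, edgeR adjusted p = 0.1799). Slc25a1 ranged from 9.30 to 41.7 CPM in CD36-POS and from 23.8 to 38.0 CPM in CD36-NEG libraries, which overlapped (edgeR adjusted p = 0.899).

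Acetyl-CoA is committed to fatty acids by the carboxylases Acaca and Acacb, and Fasn, fatty acid synthase, builds palmitate. Fasn came closest to the threshold in this branch. It was at 11.2, 24.3, 12.3, 20.3 and 19.6 CPM in CD36-POS libraries 1, 2, 3, 4 and 7, against 44.8, 39.5, 32.7, 26.8 and 24.2 CPM in CD36-NEG libraries 1, 2, 4, 7 and 8. CD36-POS library 2 and CD36-NEG library 8 met at nearly the same level, and the other libraries were apart. The log2 fold change was -0.93 (SE 0.28, edgeR adjusted p = 0.0528), and without CD36-POS library 2 it was -1.09 and passed (edgeR adjusted p = 0.0357). Acaca had a log2 fold change of 0.15 with an interval from -0.61 to 0.91, and it lay between -0.28 and -0.005 in 4 of 20 alternative fits. Acacb had 12 counts in CD36-POS library 2, 1 count in CD36-NEG library 8 and 0 in the other 8 libraries, and was not tested.

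Long-chain fatty acids, palmitate among them, are lengthened by ELOVL enzymes. SCD enzymes desaturate saturated chains, and FADS enzymes act on polyunsaturated ones. None of the tested members of these steps passed the edgeR test. Fads1, a desaturase of polyunsaturated fatty acids, was at 82.2, 94.7, 75.4, 95.6 and 77.3 CPM in CD36-POS libraries 1, 2, 3, 4 and 7, against 69.1, 42.7, 65.7, 54.1 and 66.5 CPM in CD36-NEG libraries 1, 2, 4, 7 and 8. The lowest CD36-POS library was above the highest CD36-NEG library, which held for 1 of 29 members tested and for 2.59% of all genes. Its log2 fold change was 0.51 (SE 0.19), and it did not pass (edgeR adjusted p = 0.117). With transcript length and GC content corrected for, which set the median over all genes at 0.147, Fads1 was at 0.83 and passed (edgeR adjusted p = 0.00437). Fads2, which acts before Fads1 in the same route, was too low to test, with 4 counts over the CD36-POS group, at most 1 in a library, and 106 counts over the CD36-NEG group, 0 of them in library 2.

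Scd2, a stearoyl-CoA desaturase that makes monounsaturated fatty acids, was at 44.7 ± 17.7 CPM in CD36-POS and 69.3 ± 28.5 CPM in CD36-NEG libraries (SD, n = 5 each, log2 fold change -0.64, edgeR adjusted p = 0.256). Its close copy Scd1 was far lower and not tested, at 0 to 0.790 CPM in CD36-POS and 0.858 to 4.13 CPM in CD36-NEG libraries. The groups did not overlap, but in a fit without a filter its log2 fold change of -2.90 did not pass (SE 1.29, edgeR adjusted p = 0.200). In CD36-POS library 2 both genes had counts with decimals, and reads of these copies may be divided between them, so Scd1 is uncertain.

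Elovl1, which lengthens saturated chains, was at 31.4, 164, 122, 191 and 153 CPM in CD36-POS libraries 1, 2, 3, 4 and 7, against 151, 132, 135, 147 and 174 CPM in CD36-NEG libraries 1, 2, 4, 7 and 8. CD36-POS library 1 stood alone below the other 9, and its removal changed the log2 fold change to 0.09, against -0.16 with it (interval -0.82 to 0.51). Elovl5, which lengthens polyunsaturated chains, was at 66.0 ± 16.7 CPM in CD36-POS and 90.4 ± 26.0 CPM in CD36-NEG libraries (SD, n = 5 each, log2 fold change -0.45, edgeR adjusted p = 0.291). Elovl6, which acts on palmitate, differed by -0.16 on the log2 scale, within an interval from -1.48 to 1.15. Elovl7 had 12 counts over the CD36-POS group and 40 over the CD36-NEG group and was not tested.

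Per kilobase of exon (GENCODE M21, all exons of a gene merged), the same gene had the highest level of each branch in both groups. Exons of Fdps, Tm7sf2, Acss2 and Elovl1 overlap those of other coding genes, so their levels are uncertain where the counting ignored strand or shared reads. Ebp led the sterol branch with a level of 41.3 ± 9.58 CPM per kb in CD36-POS and 38.4 ± 4.38 CPM per kb in CD36-NEG cells. Lss had the lowest mean of the 18 in both groups (0.411 ± 0.275 CPM per kb in CD36-POS and 0.900 ± 0.495 in CD36-NEG cells). Hsd17b7 came next (0.766 ± 0.768 and 0.940 ± 0.655 CPM per kb), within the spread. Without division by length, Hsd17b7 had the lowest mean in both groups (3.91 CPM in CD36-POS and 4.80 CPM in CD36-NEG libraries). Hmgcs1 (8.61 ± 1.29) and Pmvk (7.88 ± 2.87 CPM per kb) followed Ebp in CD36-POS cells and did not differ beyond their spread. In CD36-NEG cells Pmvk (15.8 ± 2.95), Cyp51 (13.7 ± 2.12) and Hmgcs1 (12.7 ± 2.46 CPM per kb) followed, also within their spread. Mvd was the 12th highest level of 18 in CD36-POS (3.4 ± 2.1 CPM per kb) and the 5th in CD36-NEG cells (11.2 ± 3.3 CPM per kb). The genes next to it in rank lay within this spread in both groups, so these ranks are uncertain. Elovl1 (48.5 ± 22.6 CPM per kb in CD36-POS and 54.2 ± 6.05 in CD36-NEG cells) and Acly (27.5 ± 4.31 CPM per kb in CD36-POS and 35.4 ± 9.29 in CD36-NEG cells) led the fatty acid branch.

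Summed over its 18 genes, the sterol branch was at 250.7, 424, 381, 375 and 391 CPM in CD36-POS libraries 1, 2, 3, 4 and 7, against 615, 504, 608, 448 and 563 CPM in CD36-NEG libraries 1, 2, 4, 7 and 8. The groups did not overlap, with CD36-POS library 2 closest to CD36-NEG library 7. The fatty acid branch summed to 422, 590, 550, 591 and 576 CPM in CD36-POS libraries, against 729, 617, 587, 653 and 701 CPM in CD36-NEG libraries. Here CD36-POS libraries 2 and 4 lay just above CD36-NEG library 4. The sterol sum divided by the fatty acid sum was 0.593 to 0.719 in CD36-POS and 0.685 to 1.035 in CD36-NEG libraries, which overlapped at CD36-POS libraries 2 and 3 and CD36-NEG library 7. With the 4 supply genes left out of the fatty acid sum, the ratio was 0.850 to 1.07 in CD36-POS and 1.14 to 1.65 in CD36-NEG libraries, without overlap. Elovl1 had the highest mean in this reduced sum (132 CPM in CD36-POS and 148 CPM in CD36-NEG libraries). Of its 7 tested genes 5 had log2 fold changes below 0 and 2 above, among these Fads1 (85.1 CPM in CD36-POS and 59.6 CPM in CD36-NEG libraries). CD36-POS library 1, the shallowest, was lowest of its group for 12 of 18 sterol members and for 5 of 11 tested fatty acid members. Without it, the median log2 fold changes were -0.60 for the sterol and -0.32 for the fatty acid branch, with Mvd and Cyp51 past the threshold and Sqle not. These sums are descriptions of the listed genes and were not tested.

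**Figure D4:**
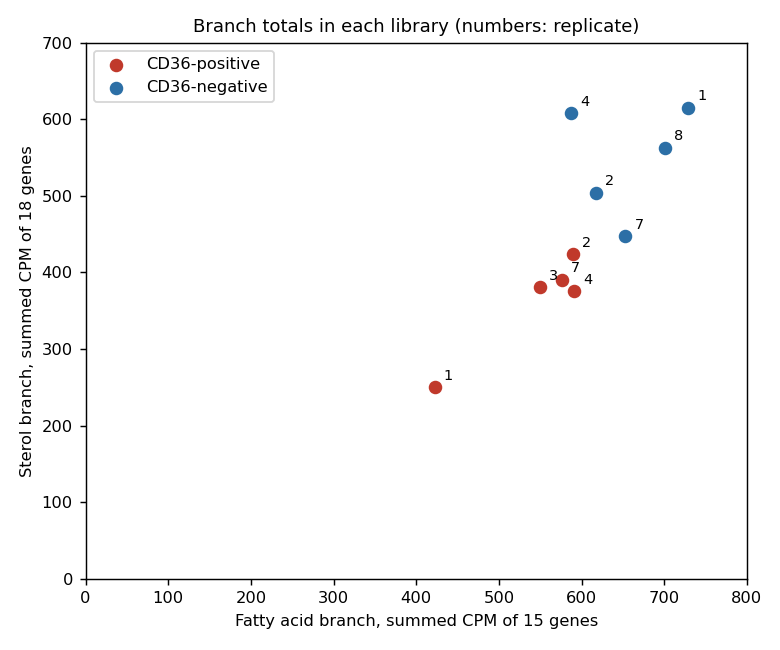
Summed CPM of the 18 sterol genes (vertical axis) against that of the 15 fatty acid genes (horizontal axis), with 1 point per library labelled by its number, CD36-POS (CD36-positive) in red and CD36-NEG (CD36-negative) in blue. CD36-POS libraries sit at 250.7 to 424 CPM on the sterol axis, below the 448 to 615 CPM of CD36-NEG libraries, and library 1 is lowest on both axes.

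The wider list held 56 other genes of sterol synthesis, fatty acid synthesis and their control, of which 49 were tested, 5 passed as lower and 1 as higher, with a median log2 fold change of -0.08, against 4.74% lower and 2.61% higher of all genes. The counts in its sublists, which follow, stand beside the same shares. Among 20 tested genes of SREBP and LXR control, 3 were lower and 0 higher (0 higher also at an unadjusted p of 0.05, and with DESeq2 or limma voom). Srebf2 was at 15.1, 14.2, 16.2, 18.8 and 11.3 CPM in CD36-POS libraries 1, 2, 3, 4 and 7, against 63.9, 43.5, 50.4, 44.0 and 36.8 CPM in CD36-NEG libraries 1, 2, 4, 7 and 8. The groups were widely apart, with a 3.16-fold fall (log2 fold change -1.66, SE 0.24, edgeR adjusted p = 0.000214).

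Nr1h2, which encodes LXRβ, was also lower, at 22.9, 32.9, 35.7, 43.8 and 47.8 CPM in CD36-POS libraries 1, 2, 3, 4 and 7, against 83.7, 59.6, 109, 64.6 and 63.0 CPM in CD36-NEG libraries 1, 2, 4, 7 and 8. No library crossed between the groups (log2 fold change -1.05, SE 0.24, edgeR adjusted p = 0.0105). Srebf1 did not pass, at 33.7, 39.7, 30.5, 38.0 and 38.6 CPM in CD36-POS libraries, against 48.2, 47.3, 42.2, 41.0 and 35.9 CPM in CD36-NEG libraries. Its groups overlapped at CD36-NEG library 8, and its log2 fold change of -0.25 had an interval from -0.65 to 0.15. Whether Srebf1 and Srebf2 changed to different degrees was not tested.

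Among 12 other tested sterol genes, 1 passed. Por, the reductase that hands electrons to Cyp51 and Sqle, was at 38.2, 59.6, 31.2, 45.9 and 56.2 CPM in CD36-POS libraries 1, 2, 3, 4 and 7, against 117, 77.2, 78.8, 83.2 and 82.7 CPM in CD36-NEG libraries 1, 2, 4, 7 and 8. CD36-NEG library 1 was highest, and the groups did not overlap (log2 fold change -0.92, SE 0.22, edgeR adjusted p = 0.0129). With transcript length and GC content corrected for, it was -0.50 and did not pass (edgeR adjusted p = 0.132).

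Of 17 other tested fatty acid genes, 1 was higher and 1 lower. Hacd4, a dehydratase of the elongation cycle, was at 307, 273, 242, 277 and 213 CPM in CD36-POS libraries 1, 2, 3, 4 and 7, against 118, 152, 153, 143 and 149 CPM in CD36-NEG libraries 1, 2, 4, 7 and 8. All CD36-POS libraries were above all CD36-NEG ones (log2 fold change 0.88, SE 0.16, edgeR adjusted p = 0.00224). Counts of Hacd4 had decimals in every library, and how reads were divided is not given, so its level is uncertain. Elovl4, which makes very long chains in photoreceptors, was at 2.05, 9.94, 3.44, 3.94 and 1.66 CPM in CD36-POS libraries, against 10.6, 36.5, 28.9, 8.35 and 12.9 CPM in CD36-NEG libraries. Library 2 was highest in both groups, and CD36-POS library 2 reached above CD36-NEG library 7 (log2 fold change -2.20, SE 0.54, edgeR adjusted p = 0.0188). Elovl4 did not pass without CD36-NEG library 2 (-1.85, edgeR adjusted p = 0.0744) or library 4 (-2.045, edgeR adjusted p = 0.0593). Nor did it pass without CD36-POS libraries 1 and 3 (-1.94, edgeR adjusted p = 0.0831) or with limma voom (-2.06, limma adjusted p = 0.0653). Library 2 also had the highest photoreceptor marker sum of each group, 1026 CPM in CD36-POS and 2598 CPM in CD36-NEG cells, against 119 to 428 CPM in the other CD36-POS and 415 to 1518 CPM in the other CD36-NEG libraries. The part of photoreceptor RNA in this result was not tested.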

How the data were processed

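RNA sequencing counts were analysed for 5 CD36-POS and 5 CD36-NEG libraries, grouped and numbered by the description label. The deposited table holds expected counts per gene symbol (91.9% of values whole), not normalized, per the file headers. Without roles, mm10, StringTie 1.3.1, HISAT2 2.1.0, Bowtie2 2.2.8 and fastp 0.18.0 are named in the submitters' processing notes. The counting program and strand setting are not given in the sources used here. Of 22008 lines, 8 damaged and 131 repeated ones were dropped.

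After rounding, genes were kept by filterByExpr (minimum count 10) and library sizes adjusted by TMM. The test was edgeR 4.0.16 in R 4.3.3 (glmQLFit, glmQLFTest, group as the only term, Benjamini-Hochberg over 11594 genes, threshold 0.05). The SE is the log2 fold change divided by the root of F. Alternatives used DESeq2 1.42.0 and limma 3.58.1. A loess correction (span 0.3) on transcript length and GC content was added after seeing the data. The fit was tested on simulated counts, where it recovered 29.9% of 2-fold and 79.8% of 4-fold changes, and 5.83% of its calls were false. A gene that did not pass may therefore still differ. Replicates differed by more than sampling noise (chi-square per degree of freedom 23.3 to 116). The floor of 3 counts equals 0.226 to 0.600 CPM per library, for counting error only.

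Members and lists were chosen with earlier results of these data known. Library values are given for members past the threshold, the 3 per branch with the next smallest p, and the 2 per branch with the highest mean. Some genes of the wider list are not reported here.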

Additional observations from a re-analysis of the deposited data

Results flagged for a closer look

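Among 84 groups of 5 libraries checked, 11 had 1 library far from the other 4, where chance flags about 1 in 20 groups. CD36-POS library 1 was low for both branches, at 250.7 CPM for the sterol sum against 375 to 424 CPM in the other 4 CD36-POS libraries, and at 422 CPM for the fatty acid sum against 550 to 591 CPM. CD36-NEG library 7 was low for Pmvk (18.3 CPM against 27.9 to 30.9 CPM in the other CD36-NEG libraries), and CD36-NEG library 2 was low for Cyp51 (44.2 CPM against 61.6 to 68.5 CPM). CD36-NEG library 1 was high for Por (117 CPM against 77.2 to 83.2 CPM) and low for Hacd4 (118 CPM against 143 to 153 CPM). CD36-POS library 2 was high for Elovl4 (9.94 CPM against 1.66 to 3.94 CPM). Among genes near 0, Acacb stood at 1.36 CPM in CD36-POS library 2 and at 0.0836 CPM in CD36-NEG library 8, with 0 in the other libraries. Elovl7 stood at 1.29 CPM in CD36-POS library 3 and at 2.72 CPM in CD36-NEG library 2, against at most 0.339 CPM in the other CD36-POS and 0.835 CPM in the other CD36-NEG libraries.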

How the results depend on the processing

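Of 572 refitted log2 fold changes of members, 515 kept their direction and their side of the threshold, 19 no longer passed, 12 newly passed and 26 changed sign, and the cause of these changes was not tested. Both branch medians kept their direction in all 40 refits. Members lower (3) came to 5 without a filter, 6 with DESeq2, 1 with GC and length correction and 1 at an adjusted p of 0.01, and 1 to 4 with 1 library left out. The sterol branch (3 lower) gave 5, 3, 1 and 1 to 4 with DESeq2, limma voom, GC and length correction and 1 library left out, and 1 at 0.01. Fatty acid members lower (0) came to 1 without a filter, 1 with a filter of 10 CPM in 5 samples, 1 with DESeq2 and 0 to 1 with 1 library left out, and members higher (0) to 1 (Fads1) with GC and length correction. Wider pathway genes higher (1) came to 2 without CD36-POS libraries 1 and 3, and lower (5) to 2 at 0.01. Genes higher (303) came to 533 with DESeq2, 187 without CD36-POS libraries 1 and 3, 609 with GC and length correction and 90 at 0.01, and 132 to 380 with 1 library left out. Genes lower (550) came to 330 at 0.01.

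Same-numbered libraries deviated together only weakly (correlations 0.0287 to 0.133 by description and -0.0216 to 0.133 by title). Among the CD36-NEG libraries, the same-numbered one ranked 1 or 2 by description and 1 to 3 by title, where 1 is the highest correlation. The main fit did not take the numbers as pairs, but these values cannot exclude that same-numbered libraries share an origin. With a replicate block by description number, genes higher came to 184, members lower to 3 (Sqle, Cyp51 and Scd2) and fatty acid members lower to 1, and by title number members and sterol members lower to 1 (Cyp51). Mvd did not pass by description (-1.76, edgeR adjusted p = 0.150) or by title (-1.91, edgeR adjusted p = 0.0518). Por did not pass under the block by description (-0.828, edgeR adjusted p = 0.0862). Under the same block, log2 fold changes of Acaca (-0.173), Hsd17b7 (0.336) and Msmo1 (-0.121) changed sign, as did Msmo1 by title (-0.036).

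Other sign changes, in genes whose intervals span 0, came with GC and length correction (Acat2 0.116, Elovl1 0.090, Mvk 0.110, Slc25a1 0.231, and Srebf1 0.162), without CD36-POS libraries 1 and 3 (Acaca -0.280, Elovl1 0.188, Mvk 0.000, Slc25a1 0.297) and with limma voom (Acaca -0.035, Slc25a1 0.030). With 1 library left out, values ran from -0.005 to 0.320 for Acaca, -0.025 to 0.193 for Ebp, -0.328 to 0.093 for Elovl1, -0.473 to 0.117 for Elovl6, -1.004 to 0.010 for Hsd17b7, -0.143 to 0.207 for Msmo1, -0.267 to 0.124 for Slc25a1 and -0.215 to 0.228 for Tm7sf2. Acacb, Elovl7, Scd1 and Fads2 did not pass the filter on low counts and were not tested.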
